A study of Homo sapiens with 12 samples.

Results

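The hypoxia-inducible factor (HIF) alpha subunits HIF1A, EPAS1 (HIF-2 alpha) and HIF3A, together with their shared partner ARNT (HIF-1 beta), were described in HepG2 cells given a glucocorticoid, KLA or both. They are 4 of the 28256 gene symbols in the deposited table. Each gene was read from its transcript with the highest total count, and the other HIF3A transcripts were added, which made 7 of 70507 transcript rows. HIF3A was selected on its measured rise with dexamethasone, so its values in those comparisons are given as a description without a test. HIF1A, EPAS1 and ARNT were included as its family.

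HepG2 is an established human hepatoma cell line. The 12 RNA-seq libraries fell into 4 groups of 3. All cells, wild type per the labels, spent 24 h in medium with charcoal-stripped serum, which removes most steroids, and were then treated for 24 h. The DMSO group had 0.1% DMSO as vehicle, the Dex group 50 nM dexamethasone, the KLA group KLA at a labelled dose of 100 ng/µl, and the DexKLA group both agents. Dexamethasone is a synthetic agonist of the glucocorticoid receptor. KLA is not spelled out in the labels, and the unit of its dose was taken as labelled. Whether treated cells also received DMSO, and whether replicates were separate cultures of this 1 line, is not stated. The p-values therefore measure only the library-to-library spread, possibly a technical one. The labels name no change in oxygen.

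HIF proteins bind DNA as pairs of an alpha subunit with ARNT. In normal oxygen, prolyl hydroxylases of the EGLN family mark HIF1A and EPAS1 proteins, the VHL ubiquitin ligase binds the marked form and the proteasome destroys it, so much of the regulation lies in protein stability and is not visible in mRNA. HIF3A is made as many splice variants, some of which lack a transactivation domain and can hold back the other alpha subunits. In liver, HIF1A is best known for glycolytic genes, and EPAS1 for erythropoietin and lipid handling.

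HIF3A lies on chr19:46303619-46343433 (hg38, plus strand) in its chosen transcript, NM_152794. The RefSeq table gives 3 starts for the gene. The 250 bases before each start are shown because HIF3A was the member that differed with Dex and each transcript row begins at one of these starts. They come from RefSeq (GRCh38.p14), 5′ to 3′, and capitals mark the core of the hypoxia response element in its form GCGTG.
HIF3A chr19:46296792-46297041, before the start of NM_152795: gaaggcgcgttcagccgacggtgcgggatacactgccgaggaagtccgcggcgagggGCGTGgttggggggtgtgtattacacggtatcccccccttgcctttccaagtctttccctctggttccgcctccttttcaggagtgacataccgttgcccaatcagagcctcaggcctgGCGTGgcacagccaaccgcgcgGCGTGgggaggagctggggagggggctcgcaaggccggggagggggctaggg
HIF3A chr19:46298126-46298375, before the start of NM_022462 and NM_152796: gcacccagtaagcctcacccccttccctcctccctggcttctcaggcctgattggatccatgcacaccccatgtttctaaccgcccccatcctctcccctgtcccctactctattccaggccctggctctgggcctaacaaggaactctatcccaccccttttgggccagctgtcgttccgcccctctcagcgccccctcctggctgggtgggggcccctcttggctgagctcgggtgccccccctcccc
HIF3A chr19:46303369-46303618, before the start of NM_152794: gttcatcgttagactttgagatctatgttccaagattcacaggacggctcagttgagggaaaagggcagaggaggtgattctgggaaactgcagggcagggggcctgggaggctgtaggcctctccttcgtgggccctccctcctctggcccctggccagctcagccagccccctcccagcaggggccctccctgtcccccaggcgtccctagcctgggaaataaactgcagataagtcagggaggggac

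The first HIF3A window held 3 copies of GCGTG, all on the plus strand, at 193 to 189, 74 to 70 and 52 to 48 bases before the start. The other HIF3A windows held none. Across all 35116 RefSeq windows of this length, searched on both strands, 32.2% held GCGTG and 3.16% held it at least 3 times. The window before EPAS1 held 1 copy, the first of the 2 before HIF1A held 1, and the window before ARNT held none. The core form ACGTG (18.5% of all windows) occurred in none of the 7 member windows, nor did the glucocorticoid half-site TGTTCT (12.4%) or its looser form TGTNCT (35.5%), both strands searched. The searches for GCGTG and TGTNCT were added after the sequences were seen. GCGTG and ACGTG differ in their first letter, so no match counts as both, whereas TGTNCT includes TGTTCT. A match is a description of letters, and the lack of one says only that the letters are not in these windows.

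Total counts were 3317740 to 5277463 in the DMSO libraries, 3642685 to 17782057 in Dex, 15998657 to 20933501 in KLA and 4514606 to 11484497 in DexKLA, so every KLA library was deeper than every DMSO library and depth cannot be told apart from KLA in that comparison. The libraries also differed in how levels moved with transcript length. The deviation of a library from each gene's mean was correlated with transcript length across the 13166 genes tested, which are no independent replicates. Spearman's rho was 0.192 to 0.395 in DMSO, −0.534 to 0.137 in Dex, −0.526 to −0.152 in KLA and −0.134 to 0.385 in DexKLA. Replicates of a group differed by more than sampling noise in every pair. All 8 hepatocyte markers had counts, with a summed level of 92900 to 109000 CPM (counts relative to the library total) in DMSO and 116000 to 146000 in the other groups. The endothelial gene KDR, the T cell gene CD3E and the fibroblast gene COL1A2 were at 0 in every library, and the leukocyte gene PTPRC was at most 0.0625 CPM. The 4 leukocyte markers summed to 3990 to 4700 CPM through LYZ, the 6 fibroblast markers to 21.1 to 30.6 CPM mainly through PDGFRB, and the 4 endothelial markers to 2.88 to 5.49 CPM. All 4 member genes passed the filter on low counts, HIF3A only through the groups with Dex.

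HIF3A, the least abundant alpha subunit of the 3, was almost uncounted without Dex and was counted in every library with it. Its rounded counts were 1, 1 and 1 in the 3 DMSO libraries and 28, 140 and 36 in the 3 Dex libraries. With KLA they were 1, 3 and 2, and with DexKLA 52, 31 and 62. Libraries with Dex and libraries without it did not overlap.

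Scaled for library size by TMM, HIF3A stood at 0.282, 0.179 and 0.218 CPM with DMSO (0.226 ± 0.0516, SD, n = 3). With Dex it stood at 7.76, 8.03 and 7.92 CPM (7.9 ± 0.133). The 3 Dex values thus lay close together, although replicate 2 was the deepest of the group and replicates 1 and 3 had a depth like that of DMSO. Replicates 1 and 3 rest on 28 and 36 counts. Their counting error is larger than the SD of 0.133 CPM, so the closeness does not measure precision. KLA alone gave 0.0641, 0.145 and 0.112 CPM (0.107 ± 0.0406). DexKLA gave 5.94, 7.2 and 5.15 CPM (6.1 ± 1.03). A library's 3 counts corresponded to between 0.143 and 0.904 CPM of its plain total, and each library without Dex was at or under this floor, so no fold is given between KLA and DMSO for HIF3A.

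**Figure D1:**
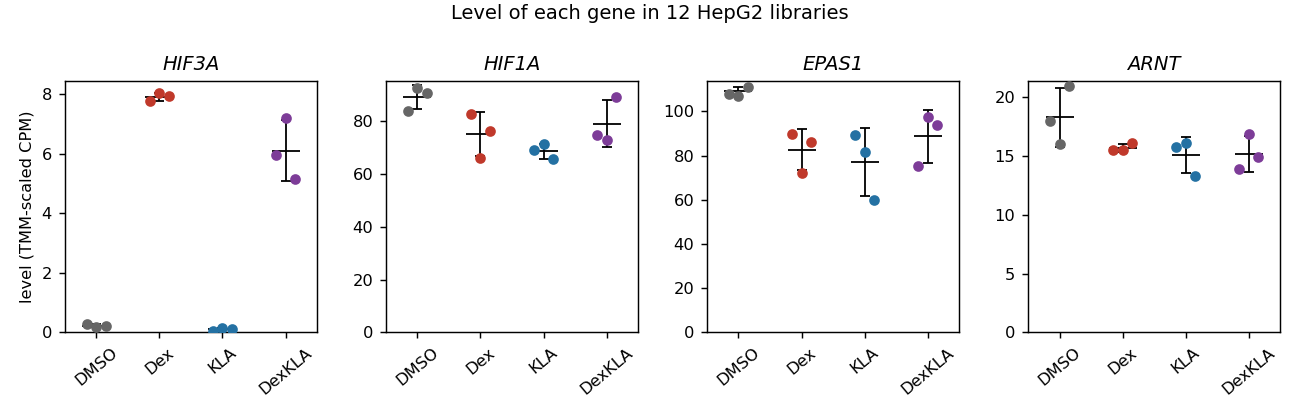
Level of HIF3A, HIF1A, EPAS1 and ARNT in TMM-scaled CPM (linear axes from 0, a different scale for each gene) in the 4 groups. Points are libraries, horizontal marks are means and bars are ± 1 SD of 3 libraries. HIF3A lies between 5.15 and 8.03 CPM in the 6 libraries with Dex and at or below 0.282 in the others, while HIF1A and EPAS1 are highest on average with DMSO.

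Pooled over libraries, 204 HIF3A counts with Dex stood against 3 with DMSO, a ratio per library count of 34 (exact binomial 95% interval 11.5 to 166, counting error only). With KLA in the medium, 145 counts with DexKLA stood against 6 with KLA, a ratio of 53.1 (23.8 to 147). The fitted log2 changes of edgeR were 5.1 without KLA, 5.59 with KLA and 5.34 for the mean of both. They are given without a standard error, since that would be worked back from the withheld test. Such values depend on the prior count because the denominators were near 0. Both contrasts compare libraries that the other did not use, and HIF3A was selected on this rise, so neither is given a p.

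Between the 2 groups with Dex, HIF3A was lower in all 3 DexKLA libraries than in all 3 Dex libraries. The selection did not compare these groups, but it used values with Dex, so this test is not independent of it. The fitted log2 difference was −0.42 ± 0.2 (SE, 95% interval −0.89 to 0.05) with an unadjusted p of 0.0497 by edgeR. After Benjamini-Hochberg adjustment over all genes, the adjusted p by edgeR's quasi-likelihood test was 0.701, so the difference did not pass. edgeR called 0% of the 13166 genes tested in this comparison (0 at an adjusted p under 0.05, 935 at an unadjusted p under 0.05), and DESeq2 also called 0. The adjusted p for HIF3A ranged from 0.494 to 1 over the alternatives.

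The 4 HIF3A rows are transcripts of 1 gene that share exons and therefore reads, so they are not 4 measurements. NM_152794 and NM_152795 tied for the highest total, each with 358 counts over the 12 libraries, NM_022462 had 340.5 and NM_152796 had 174. In the GENCODE models for hg38, 1308 bases are common to all 4. The first 3 rows are 5847, 5839 and 5772 bases long in the table and NM_152796 is 1747 bases long, ends at another 3′ exon and stops at 46338540.

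In every row the counts with Dex and with DexKLA exceeded those of both groups without Dex. Pooled deposited counts of NM_152794 were 3 in DMSO, 204 in Dex, 6 in KLA and 145 in DexKLA. Those of NM_152796 were 2, 90, 2 and 80. Per kilobase of transcript, the pooled counts with Dex were 34.9 for NM_152794 and 51.5 for NM_152796, and with DexKLA 24.8 and 45.8. The pooled ratio of Dex to DMSO was 22.5 (6.04 to 188) for NM_152796 and 32.1 (10.8 to 157) for NM_022462. That of DexKLA to KLA was 86.8 (23.2 to 729) and 50.5 (22.6 to 140). The rows share exons and can count the same reads, so these values do not tell whether the transcripts respond alike.

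Reads that separate the long rows were few. NM_152794 and NM_152795 differ in their first exon, and their counts differed by at most 0.5 in any library. NM_022462 and NM_152796 lack 1 internal exon of NM_152794, exon number 3, with 146 coding bases at chr19:46305245-46305390. It is shown because it is the annotated internal difference between NM_152794 and NM_022462, in capitals with 20 bases of each neighbouring exon in lower case, from the GENCODE transcript on hg38.
HIF3A exon 3: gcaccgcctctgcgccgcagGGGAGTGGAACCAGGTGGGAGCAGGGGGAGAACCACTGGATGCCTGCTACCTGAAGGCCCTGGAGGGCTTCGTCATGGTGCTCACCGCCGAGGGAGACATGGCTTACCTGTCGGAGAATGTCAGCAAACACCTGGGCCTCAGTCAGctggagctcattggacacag

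NM_152794 exceeded NM_022462 by 2, 7.5 and 1.5 counts in the Dex libraries, by 4, 0.5 and 2 in the DexKLA libraries and by 0 in each of the 6 others, 17.5 in all. The excess thus ran from 0.5 to 7.5 counts in the libraries with Dex. Those without Dex held only 1 to 3 counts of either row, too few to show such an excess, so it cannot be linked to Dex. The rows differ in their first exon and in exon 3, and both end at 46343433 as deposited, although their GENCODE models end apart. The table does not place reads on exons, so the excess was not assigned to 1 of them.

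The short row, NM_152796, reached 60.7%, 37.7% and 56.3% of the count of NM_152794 in the Dex libraries and 51.5%, 54.8% and 58.4% in the DexKLA libraries. Dex replicate 2 was thus the lowest of the 6. Pooled, the share was 44.1% with Dex and 55.2% with DexKLA. A GENCODE antisense transcript, AC007193.2, overlaps HIF3A and is not used here, and the sources used here give no strand for the reads, so antisense reads cannot be told apart.

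**Figure D2:**
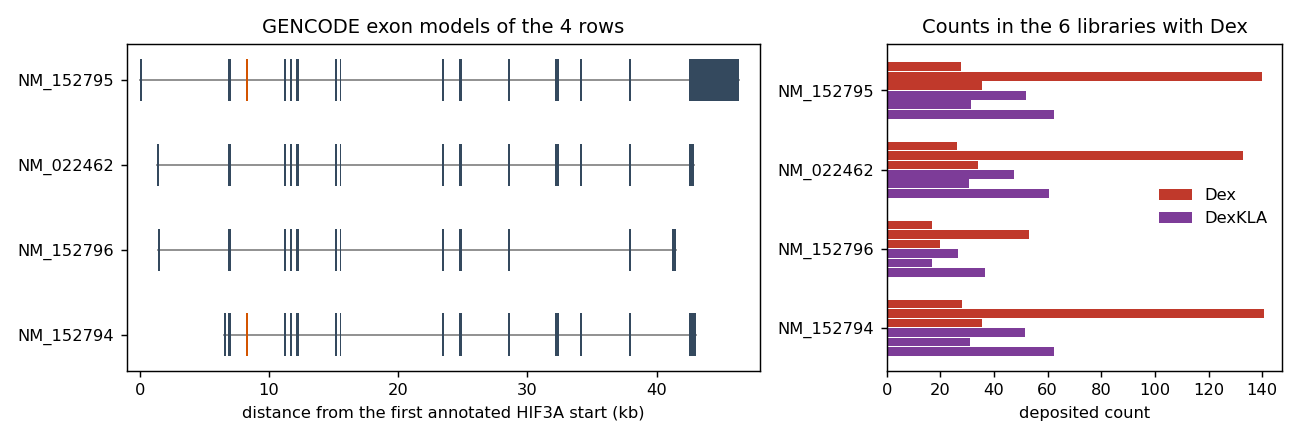
Left, GENCODE exon models of the 4 HIF3A rows by distance from the first annotated start (kb), boxes for exons (drawn at least 0.15 kb wide), orange for exon 3 of NM_152794. Some models end earlier than the deposited rows. Right, deposited counts of each row in the 3 Dex and 3 DexKLA libraries, from replicate 1 at the top of each block, where NM_152796 runs between 17 and 53 counts and the other rows between 26 and 140.5.

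HIF1A encodes the alpha subunit found in most cell types. It lies on chr14:61695513-61748258 (hg38, plus strand, NM_001530, 3929 bases). Its level was 83.9, 92.8 and 90.8 CPM with DMSO (89.2 ± 4.65, SD, n = 3) and 82.6, 66.1 and 76.5 with Dex (75.1 ± 8.35). With KLA it was 69, 71.3 and 65.7 CPM (68.7 ± 2.82), and with DexKLA 74.9, 72.9 and 89.2 (79 ± 8.9). The 3 DMSO libraries lay above all Dex and all KLA libraries, and the DexKLA libraries overlapped those of DMSO and Dex and lay above those of KLA.

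EPAS1 encodes HIF-2 alpha, abundant in endothelium and also made in hepatocytes. It lies on chr2:46297407-46386697 (hg38, plus strand, NM_001430, 5137 bases). Its level was 108, 107 and 111 CPM with DMSO (109 ± 2.13) and 89.8, 72.1 and 86.2 with Dex (82.7 ± 9.35). With KLA it was 89.4, 81.6 and 59.7 CPM (76.9 ± 15.4), and with DexKLA 75.2, 97.5 and 93.7 (88.8 ± 12). The DMSO libraries were above every other library, while the 3 treated groups overlapped each other.

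ARNT encodes the common partner of the alpha subunits and of the dioxin receptor AHR. It lies on chr1:150809714-150876599 (hg38, minus strand, NM_001350226, 4716 bases), 1 of 8 ARNT rows. Its level was 18, 16 and 21 CPM with DMSO (18.3 ± 2.51), and 15.5, 15.5 and 16.1 in the Dex group (15.7 ± 0.32). In the KLA group it was 15.8, 16.1 and 13.3 CPM (15.1 ± 1.55), and in DexKLA 13.9, 16.9 and 14.9 (15.2 ± 1.54). All 4 groups overlapped.

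Dex alone was compared with DMSO to see whether the other members moved when HIF3A did. Of HIF1A, EPAS1 and ARNT, 0 passed the quasi-likelihood test of edgeR after Benjamini-Hochberg adjustment, beside 2.05% of all genes tested. EPAS1 stood lower by a log2 difference of −0.41 ± 0.14 (95% interval −0.73 to −0.09, adjusted p = 0.105), with no overlap between the groups. HIF1A stood at −0.26 ± 0.11 (−0.53 to 0, adjusted p = 0.198), also without overlap, and ARNT at −0.22 ± 0.16 (−0.58 to 0.14, adjusted p = 0.441). How many of all genes did not overlap was not counted in any comparison, so lack of overlap is a description only. By the same test 2683 of 13166 genes had an unadjusted p under 0.05 here. The adjusted p of EPAS1 ranged from 0.0127, with the 6 libraries of the comparison alone, to 0.421 over the alternatives.

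With KLA present in both groups, the estimates for HIF1A and EPAS1 had the opposite sign. For DexKLA versus KLA, edgeR's quasi-likelihood test called 0 of these 3 members and 0.653% of all genes. HIF1A stood at 0.21 ± 0.11 (−0.04 to 0.46, adjusted p = 0.506), with all 3 DexKLA libraries above all 3 KLA libraries. EPAS1 stood at 0.2 ± 0.13 (−0.1 to 0.51, adjusted p = 0.598) and ARNT at 0 ± 0.14 (−0.33 to 0.33, adjusted p = 0.999). None of these differences exceeded the spread between libraries by that test, and the intervals allow changes in either direction.

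The difference between both Dex effects was tested as an interaction. edgeR's quasi-likelihood test called 0.038% of all genes and 0 of the 3 members. EPAS1 had an interaction of 0.61 ± 0.19 (0.17 to 1.06, adjusted p = 0.0807), HIF1A of 0.47 ± 0.16 (0.11 to 0.84, adjusted p = 0.0925) and ARNT of 0.22 ± 0.21 (−0.26 to 0.71, adjusted p = 0.559). The unlike signs of the Dex estimates without and with KLA were therefore not shown to differ at the threshold. Across genes, which are not independent replicates, rho between length and the fitted change was −0.448 for Dex versus DMSO, 0.494 for DexKLA versus KLA and 0.576 for the interaction, and with each library's length trend removed the interaction was 0.44 for EPAS1 and 0.38 for HIF1A (adjusted p = 0.245 for each by edgeR). The EPAS1 interaction passed with no filter (0.6, adjusted p = 0.0185 by edgeR) and without DexKLA replicate 1 (0.72, adjusted p = 0.0396).

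Averaged over both KLA states, the Dex effect was −0.03 ± 0.08 (−0.21 to 0.15) for HIF1A, −0.1 ± 0.1 (−0.32 to 0.12) for EPAS1 and −0.11 ± 0.11 (−0.35 to 0.13) for ARNT. The adjusted p by edgeR's quasi-likelihood test was 0.968, 0.837 and 0.843, so 0 of the 3 were called beside 1.51% of all genes.

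KLA alone was compared with DMSO for the same members. HIF1A fell by 0.38 on the log2 scale (SE 0.11, 95% interval −0.63 to −0.12, adjusted p = 0.0293 by edgeR's quasi-likelihood test), lower in 3 of 3 KLA libraries than in every DMSO library. EPAS1 fell by 0.5 (SE 0.14, −0.81 to −0.19, adjusted p = 0.021 by the same edgeR test), also lower in 3 of 3. ARNT stood at −0.28 ± 0.15 (−0.61 to 0.06, adjusted p = 0.2 by edgeR) and was not called. The test called 13.7% of all genes here, against 2 of these 3 members, and 4167 of 13166 genes had an unadjusted p under 0.05.

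The calls of HIF1A and EPAS1 with KLA depended on the libraries included. Leaving out DMSO replicate 1, 2 or 3, or KLA replicate 3, ended both calls, and leaving out KLA replicate 1 also ended that of HIF1A. The log2 values in these fits ran from −0.42 to −0.35 for HIF1A and from −0.62 to −0.35 for EPAS1. With depth class as a covariate the changes were −0.32 (adjusted p = 0.334 by edgeR) and −0.26 (adjusted p = 0.509), and only 4 genes were called in all. Every KLA library was in the deeper class and every DMSO library in the shallower one. This fit therefore took its depth effect from the Dex and DexKLA libraries alone. Losing KLA calls in it was thus largely set by the design, here and for the genes listed below. Genes called lower with KLA had a median length of 5826.5 bases and those called higher 1621.5, against 3130 for all genes tested, and HIF1A and EPAS1 are 3929 and 5137 bases long. With each library's length trend removed both calls held, at −0.32 for HIF1A (adjusted p = 0.0497 by edgeR) and −0.38 for EPAS1 (adjusted p = 0.0409).

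**Figure D3:**
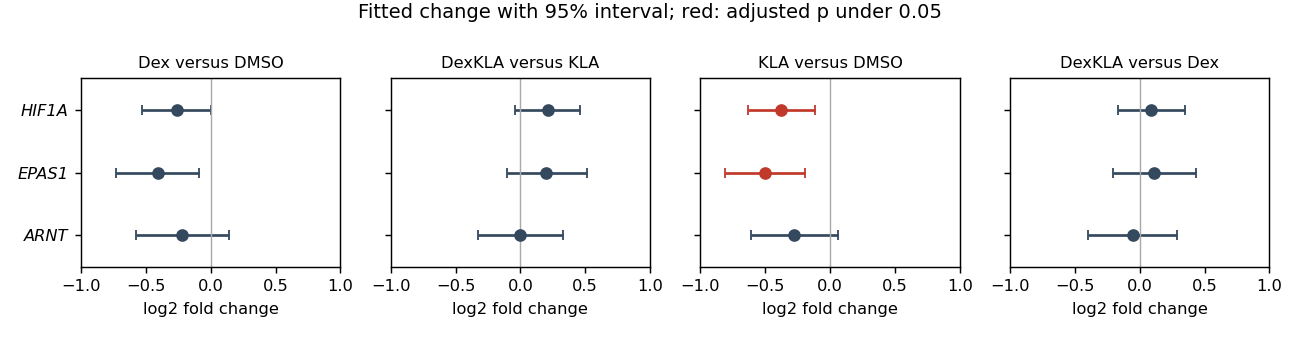
Fitted log2 fold changes of HIF1A, EPAS1 and ARNT in 4 comparisons (x axis, first group minus second), with points for edgeR's estimate and bars for its approximate 95% interval. Red marks an adjusted p under 0.05, which HIF1A (−0.38) and EPAS1 (−0.5) reached in KLA versus DMSO only; in DexKLA versus KLA their estimates are above 0 with intervals that include 0.

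KLA was also compared with Dex in both groups. For DexKLA versus Dex, HIF1A stood at 0.09 ± 0.11 (−0.17 to 0.35), EPAS1 at 0.11 ± 0.14 (−0.21 to 0.43) and ARNT at −0.05 ± 0.15 (−0.4 to 0.29). The adjusted p by edgeR's quasi-likelihood test was 0.864, 0.87 and 0.946. HIF1A shares its locus with rows annotated on the other strand. HIF1A-AS2 overlaps its 3′ end over 1220 bases and stood at 15.9 ± 2.32 CPM of the plain total in DMSO, 14.9 ± 1.42 in Dex, 14.3 ± 5.44 in KLA and 13.3 ± 1.03 in DexKLA, overlapping in all 4 groups. HIF1A-AS1 overlaps HIF1A over 311 bases and stood at 3.8 ± 0.076 CPM in DMSO (3.74 to 3.88), 3.13 ± 1.35 in Dex, 2.18 ± 0.65 in KLA (1.45 to 2.69) and 3.01 ± 1.11 in DexKLA, without overlap between DMSO and KLA. Without strand, reads of HIF1A and these genes in the overlaps cannot be told apart.

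Levels were compared between genes per kilobase of transcript, as TMM-scaled CPM per kb. In DMSO the order was HIF1A (22.7 ± 1.18, SD, n = 3), EPAS1 (21.2 ± 0.415), ARNT (3.88 ± 0.531) and HIF3A (0.0387 ± 0.00882). HIF1A and EPAS1 overlapped, from 21.4 to 23.6 and from 20.9 to 21.7, and the others were apart. With the longest transcript row per gene HIF1A stood at 20.2 in DMSO, below EPAS1, so their order depends on the row.

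The order was the same in the other groups. With Dex, HIF1A was at 19.1 ± 2.12, EPAS1 at 16.1 ± 1.82, ARNT at 3.33 ± 0.0679 and HIF3A at 1.35 ± 0.0228 CPM per kb. With KLA, the values were 17.5 ± 0.718, 15 ± 2.99, 3.19 ± 0.329 and 0.0183 ± 0.00695. With DexKLA they were 20.1 ± 2.26, 17.3 ± 2.33, 3.23 ± 0.327 and 1.04 ± 0.176. HIF1A and EPAS1 overlapped in each of these groups, and HIF3A stayed below the lowest ARNT library even with Dex.

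HIF3A was a small part of the alpha subunit mRNA in every group. Its share of the summed HIF1A, EPAS1 and HIF3A level per kb was 0.0885% ± 0.0227 (SD, n = 3) with DMSO and 0.0572% ± 0.0225 with KLA. With Dex it was 3.73% ± 0.477 and with DexKLA 2.74% ± 0.559. These shares use the deposited length of NM_152794, 5847 bases, whereas its GENCODE model has 2551. The row NM_152796 had more pooled counts per kb with Dex, 51.5 against 34.9 for NM_152794. The share of HIF3A thus depends on the row and length used, which the SD does not cover. EPAS1 held 48.3%, 44%, 45.8% and 44.9% in DMSO, Dex, KLA and DexKLA. The level of EPAS1 relative to HIF1A per kb was 0.936 ± 0.0505 in DMSO, 0.843 ± 0.0165 in Dex, 0.853 ± 0.148 in KLA and 0.865 ± 0.138 in DexKLA. The 3 alpha subunits together reached 9.82 to 13.3 times the ARNT level per kb over the 12 libraries. In bulk RNA, a lower level in every cell and fewer cells that hold the transcript cannot be told apart.

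The genes around the HIF proteins were taken from 4 lists of 67 genes, 59 of which were tested. In Dex versus DMSO edgeR's quasi-likelihood test called 4 higher and 1 lower, 8.47% of the 59, beside 2.05% of all genes. In DexKLA versus KLA and in DexKLA versus Dex it called 0, beside 0.653% and 0% of all genes. In KLA versus DMSO it called 11 higher and 2 lower, 22%, beside 13.7% of all genes. Whether these shares differ from those of all genes was not tested. Leaving out 1 library moved the count from 5 to between 1 and 10 in Dex versus DMSO, and from 13 to 0 without DMSO replicate 1.

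Of 14 tested genes of oxygen sensing and turnover, 1 rose with Dex and 3 rose with KLA, beside 2.05% and 13.7% of all genes called, with a median log2 change of 0.02 and 0.07 beside −0.01 and −0.02 over all genes. ELOB, an adaptor of the VHL ligase, rose by 0.52 ± 0.12 with Dex (adjusted p = 0.0305, edgeR) and 0.62 ± 0.12 with KLA (adjusted p = 0.00911, edgeR). RBX1, the RING subunit of that ligase, rose by 0.66 ± 0.13 with KLA, and HSP90AA1, the chaperone of HIF1A, by 0.57 ± 0.15. Both rises of ELOB were measured against the same DMSO libraries. With KLA in both groups, the Dex estimate of ELOB was −0.27 ± 0.12 (adjusted p = 0.423, edgeR). Its mean Dex effect was 0.13 ± 0.09 (adjusted p = 0.73, edgeR), which was not called. ELOB and RBX1 are short transcripts, of 968 and 1162 bases. The Dex call of ELOB was lost with the length trend removed, library size alone, the replicate block or depth class, and without any 1 of DMSO replicates 1 to 3 or Dex replicates 2 and 3. With KLA, the calls of ELOB, RBX1 and HSP90AA1 held with the length trend removed and were lost with depth class and without DMSO replicate 1, and that of HSP90AA1 also without DMSO replicate 2 or KLA replicate 3.

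The EGLN genes, HIF1AN and VHL were not called in any comparison. P4HTM of the same list was not tested, with 0 to 2 counts in a library. EGLN1, the main prolyl hydroxylase, stood at 137 ± 18.5 CPM in DMSO and 145 ± 19.2 in Dex, and EGLN3, itself hypoxia-inducible, at 10.3 ± 3.18 and 11.5 ± 2.63. VHL was at 80.2 ± 2.39 CPM in DMSO, 71.2 ± 3.87 in Dex and 67.7 ± 4.53 in KLA. HIF1AN, the asparaginyl hydroxylase that blocks coactivator binding, was at 65.9 ± 4.53, 57 ± 2.27 and 53.9 ± 4.52. VHL and HIF1AN were thus highest in DMSO on average without passing the test (adjusted p = 0.42 and 0.315 with Dex, 0.13 and 0.0752 with KLA, by edgeR).

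Among coactivators and their competitors, 5 of 6 genes were tested. NCOA1, a coactivator of nuclear receptors and HIFs, fell by 0.85 on the log2 scale with Dex (SE 0.2, adjusted p = 0.0271, edgeR) and by 0.91 with KLA (SE 0.18, adjusted p = 0.00923, edgeR). Both falls of NCOA1 were measured against the same DMSO libraries. With KLA in both groups, its Dex estimate was 0.26 ± 0.18 (adjusted p = 0.615, edgeR). Its mean Dex effect was −0.3 ± 0.13 (adjusted p = 0.489, edgeR), which was not called. EP300, the acetyltransferase recruited by HIF1A, fell by 0.62 with KLA (SE 0.2). Both have long transcripts, of 7411 and 8746 bases, and the calls of NCOA1 with Dex and of EP300 with KLA were lost with the length trend removed, and without any 1 DMSO library. The former was also lost without Dex replicate 2 or 3 and the latter without KLA replicate 3, while NCOA1 with KLA was lost without DMSO replicate 1. All 3 calls were lost with depth class as a covariate, and that of EP300 with the compared groups alone. The log2 values stayed between −0.96 and −0.67 for NCOA1 with Dex and between −1.07 and −0.71 with KLA, and ran from −0.78 to −0.2 for EP300. CITED2, which competes for EP300, was not called, at 20.9 ± 1.15 CPM in DMSO and 24 ± 0.345 in Dex.

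Of the bHLH-PAS relatives, which share the dimerisation fold of ARNT, 7 of 12 were tested and 0 were called in any comparison. The share of all genes called ran from 0% to 13.7% over these comparisons. AHR stood at 56.2 ± 9.07 CPM in DMSO, 48.2 ± 8.15 in Dex, 46.1 ± 9.07 in KLA and 53.9 ± 1.3 in DexKLA. ARNT2, the close relative of ARNT, was not tested, with 0 to 18 counts in a library.

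Of 33 tested targets of the HIFs, 3 rose and 0 fell in Dex versus DMSO, where 160 of all genes rose and 110 fell (2.05% called), with a median log2 change of 0.1 beside −0.01 over all genes. DDIT4, an inhibitor of mTORC1, went from 82.2 ± 14.5 to 143 ± 6.63 CPM (log2 0.8 ± 0.14, adjusted p = 0.00444, edgeR). P4HA1, a collagen prolyl hydroxylase, went from 449 ± 75.6 to 776 ± 64.9 CPM (0.79 ± 0.17, adjusted p = 0.0195, edgeR) and BNIP3, a mitophagy receptor, from 354 ± 55.9 to 570 ± 9.9 CPM (0.69 ± 0.15, adjusted p = 0.0162, edgeR). DDIT4 was called in 22 of 22 alternatives, P4HA1 in 19 and BNIP3 in 18. Both were lost without DMSO replicate 1, DMSO replicate 2 or Dex replicate 3, and BNIP3 also without Dex replicate 2. DDIT4 is also a known direct target of the glucocorticoid receptor, as are ANGPTL4 and IGFBP1 in this list, so the list is not of HIF targets alone.

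With KLA in both groups, 0 of the 33 targets were called for Dex, beside 0.653% of all genes. DDIT4 stood at 0.05 ± 0.14, BNIP3 at 0.13 ± 0.14 and P4HA1 at 0.51 ± 0.17, with adjusted p = 0.912, 0.761 and 0.274 by edgeR. With KLA alone DDIT4 stood at 124 ± 11.4 CPM and BNIP3 at 545 ± 75.9, and whether this bears on the Dex estimates was not tested. The interaction of DDIT4 was −0.75 ± 0.2 (adjusted p = 0.063 by edgeR), which did not pass. For the mean Dex effect 3 targets rose and 1 fell, beside 1.51% of all genes called. P4HA1 rose by 0.65 ± 0.12 (adjusted p = 0.00337, edgeR, called in 21 of 21 alternatives), DDIT4 by 0.43 ± 0.1 and BNIP3 by 0.41 ± 0.1. HMOX1, the haem-degrading enzyme, fell by 0.5 (SE 0.12, adjusted p = 0.028, edgeR). Of their 21 alternatives, the call held in 15 for DDIT4, 13 for HMOX1 and 11 for BNIP3, and most losses came from leaving out 1 library.

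KLA versus DMSO had 8 targets higher and 0 lower of 33, with a median of 0.12 beside −0.02. Of all genes 13.7% were called in this comparison, 1024 higher and 782 lower. ANKRD37, a small hypoxia-induced ankyrin protein, rose by 1.43 ± 0.3, ADM, the vasodilator adrenomedullin, by 1 ± 0.25, BNIP3 by 0.62 ± 0.14 and DDIT4 by 0.59 ± 0.14 (adjusted p = 0.0105, 0.0157, 0.0122 and 0.0133 by edgeR). All 4 calls were lost with depth class as a covariate and without DMSO replicate 1, that of ADM also without DMSO replicate 2 and that of DDIT4 without DMSO replicate 3. The log2 values stayed between 1.12 and 1.92 for ANKRD37, 0.82 and 1.32 for ADM, 0.46 and 0.81 for BNIP3 and 0.46 and 0.73 for DDIT4 over 22 alternatives each. Their transcripts are 773, 1486, 1625 and 1739 bases long, below the median of all genes tested, and with the length trend removed the 4 calls held.

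The most used reporters of HIF activity were not called. VEGFA, the angiogenic growth factor, stood at 86.8 ± 5.33 CPM in DMSO, 79.1 ± 8.63 in Dex, 92.3 ± 26 in KLA and 81.2 ± 5.55 in DexKLA. CA9, a carbonic anhydrase, stood at 49.5 ± 3.46, 62.5 ± 5.25, 66.8 ± 24.5 and 62.6 ± 22.1 CPM, and PDK1, the pyruvate dehydrogenase kinase, at 93.3 ± 16.5, 102 ± 5.38, 104 ± 13.7 and 114 ± 22.7. The KLA libraries spread widely for VEGFA and CA9. EPO, the hypoxia-induced hormone, is added here after its values were seen and was among the 8 higher with KLA (0.4 ± 0.11, adjusted p = 0.027, edgeR). Its call held in 13 of 22 alternatives. It was lost with the length trend removed, library size alone, depth class or the compared groups alone. Leaving out any 1 DMSO library, KLA replicate 1 or KLA replicate 3 also ended it.

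**Figure D4:**
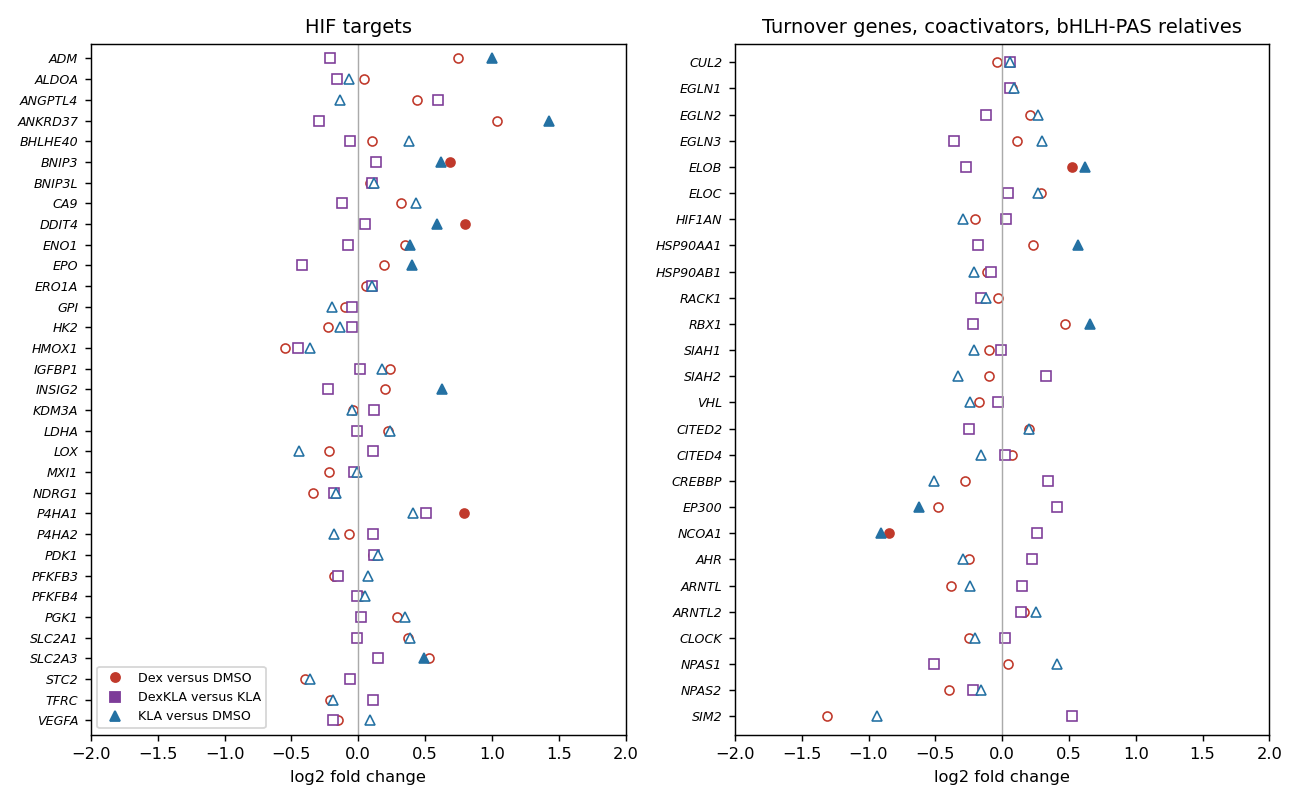
Fitted log2 fold changes (x axis) of the 33 tested HIF targets (left) and the 26 tested turnover genes, coactivators and bHLH-PAS relatives (right) in 3 comparisons. Filled symbols passed an adjusted p under 0.05 and open ones did not, and filled red circles (Dex versus DMSO) mark BNIP3, DDIT4, P4HA1, ELOB and NCOA1 only.

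The pattern over the 12 libraries was compared between genes by Pearson's r of log2 CPM, as a description over libraries that share their treatments and depth. The 5 genes closest to HIF3A were HOMER2 (r = 0.985), MATN3 (0.957), PGC (0.956), CAVIN2 (0.955) and TMPRSS2 (0.946). HOMER2 went from 6.96 CPM in DMSO to 26.9 in Dex, and from 5.43 in KLA to 29.5 in DexKLA. MATN3 went from 141 to 351 and from 165 to 363 CPM. Since likeness to HIF3A chose these genes, their rise with Dex is no finding.

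For the other members, HIF1A was closest to PTGFRN (0.964), SEPTIN11 (0.962) and YLPM1 (0.954), and EPAS1 to TNS3 (0.983), PEG3 (0.974) and ZMIZ1 (0.964). These 6 have transcripts of 5533 to 8747 bases, longer than the median of all genes tested. ARNT was closest to GRTP1 (0.898), STAT5B (0.898) and SPTLC3 (0.89). Among the members, r was 0.8 between HIF1A and EPAS1, 0.789 between EPAS1 and ARNT and 0.49 between HIF1A and ARNT, over 12 libraries. Those of HIF3A with the other members lay between −0.231 and −0.0512.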

How the data were processed

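RNA of 12 HepG2 libraries was sequenced. Per the submitters' processing notes, hg38, HOMER 4.10, BWA 0.7.17 and Trimmomatic were used, in roles not given in the sources used here. The deposited values of 70507 RefSeq transcripts, in steps of 0.5, were read to be expected counts and rounded, since 32.6% to 36.4% of values in a library were fractional. Transcripts with no symbol (406, 1.71% to 2.55% of a library's total) were left out, and each symbol was read from its transcript with the highest total. Steps of this kind can place a read on several overlapping transcripts.

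The test used edgeR 4.0.16 (R 4.3.3): TMM scaling, filterByExpr (minimum count 10, 13166 genes kept), 1 mean per group over all 12 libraries, the quasi-likelihood test and Benjamini-Hochberg adjustment over all genes in each of 6 comparisons. Called means an adjusted p under 0.05. The standard error (SE) of a fitted change was worked back from the F statistic of its quasi-likelihood test. The 95% intervals use this standard error and 8 residual degrees of freedom and are approximate. The fit was tested on simulated data. Library depth limits HIF3A, whose ratios use pooled counts with exact 95% binomial intervals. A floor is 3 counts. Both cover counting error only.

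The text names the 4 members, up to 4 called genes per list and comparison with the smallest p, 10 fixed genes whether called or not, and the genes with the highest Pearson r to each member (log2 CPM, prior count 2). Members and lists were chosen with earlier results of these data known, and 1 listed gene is not reported here. The alternatives were DESeq2 1.42.0 (size factors and test), library size alone, no filter, 50 counts in 3 libraries, the longest transcript, a replicate block, depth class (the 6 deeper or shallower libraries), removal of each library's length trend (loess span 0.3), the compared groups alone, leaving out each library and, added after the data were seen, NM_152795 for HIF3A.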

Additional observations from a re-analysis of the deposited data

How the results depend on the processing

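Over 22 fitted member values and 481 alternatives, 451 kept their direction and, where tested, their side of the threshold. HIF3A had no test in Dex versus DMSO, DexKLA versus KLA and the mean Dex effect. Its 23, 23 and 22 alternatives there are among the 451 because they kept direction and moved by less than the spread between libraries. HIF1A in KLA versus DMSO gave −0.32 with depth class as a covariate (adjusted p = 0.334 by edgeR, range over its alternatives 0.015 to 0.334) and −0.42 to −0.35 with 1 library left out; EPAS1 gave −0.26 (0.509, range 0.00178 to 0.509) and −0.62 to −0.35. EPAS1 in Dex versus DMSO passed with no filter (−0.41, adjusted p = 0.0341), with the compared groups alone (−0.41, 0.0127) and without KLA replicate 3 (−0.41, 0.0285), and ran from −0.47 to −0.31 with 1 library left out. The EPAS1 interaction passed with no filter (0.6, adjusted p = 0.0185) and without DexKLA replicate 1 (0.72, 0.0396), and ran from 0.46 to 0.73 with 1 library left out. Values near 0 changed sign: ARNT in DexKLA versus KLA was 0 with DESeq2's size factors, its test or the longest transcript, −0.01 with no filter or the compared groups alone, −0.03 with depth class, −0.07 with the length trend removed and −0.08 to 0.06 with 1 library left out. With 1 library left out, the mean Dex effect on HIF1A ran from −0.08 to 0.02, HIF1A in DexKLA versus Dex from −0.01 to 0.16 and ARNT there from −0.12 to 0. Per kb, HIF1A moved to 23.9 (DMSO, library size alone) and, with the longest transcript, to 20.2, 17 and 15.9 in DMSO, Dex and KLA, and EPAS1 in DMSO to 22.4 (library size alone). The cause of these shifts was not tested.

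Calls over all genes moved more. Dex versus DMSO (270) had 656 with DESeq2, 909 with no filter, 129 with depth class, 1348 with the compared groups alone and 56 (without Dex replicate 2) to 915 (without KLA replicate 3) with 1 library left out. DexKLA versus KLA (86) had 204 with no filter and 38 with the compared groups alone, the mean Dex effect (199) 312 with no filter and 317 without KLA replicate 3. KLA versus DMSO (1806) had 4 with depth class, 1064 with the length trend removed, 5 without DMSO replicate 1 and 591 without KLA replicate 3. DexKLA versus Dex (0) had 12 with no filter. The interaction (5) ran from 0 to 1040. Of the 59 genes around the HIFs, Dex versus DMSO (5) had 8 with DESeq2, 12 with no filter and 16 with the compared groups alone, KLA versus DMSO (13) had 0 with depth class, DexKLA versus KLA (0) had 2 with no filter, the mean Dex effect (4) had 6 with no filter and the interaction (0) had 2 with library size alone, 5 with DESeq2 and 9 with no filter.

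Same-numbered libraries of different groups did not deviate together (r −0.31 to 0.172, median −0.041, 1 of 18 pairs over 0.1), so the numbers were not taken to pair the samples. A replicate block gave 134 calls in Dex versus DMSO and 0 in the interaction, and HIF1A in KLA versus DMSO was −0.38 (adjusted p = 0.0472 by edgeR) with it; it changed no call on a member. A sum over HIF3A rows that share no exon was not run, since all 4 share exons. Depth limits HIF3A without Dex to 1 to 3 counts per library.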
